A study of Mus musculus with 10 samples.

Results

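DNA replication genes were followed in dental mesenchyme from the lower incisor of the mouse, on the side where the inferior alveolar nerve had been cut and on the intact side. The set was given as a list of 41 symbols. A member was measured where a probe set of the array names that symbol alone, and the brightest such probe set, by its average over the 10 arrays, stood for the gene. By this rule 40 of the 41 were measured, among 18193 genes in all, and Chaf1a was not analysed here. The list names genes by function, and it was drawn up with earlier results of these data known. Levels, array by array patterns and the difference between the sides are given for every member.

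Replication begins with loading of the MCM2-7 helicase onto origins that carry the origin recognition complex, with the help of Cdc6 and Cdt1. In S phase Cdc45 and the GINS complex join it to form the active helicase, DNA polymerase alpha with its primase subunits starts each strand, and polymerases delta and epsilon extend it on the sliding clamp Pcna, which the Rfc complex loads. Fen1 and Lig1 join the pieces of the lagging strand, ribonucleotide reductase and other enzymes supply nucleotides, and chromatin factors copy histones and DNA methylation. Transcription of many of these genes rises in late G1 through E2F factors, so their RNA is widely used as a sign of cells in cycle. The mouse incisor grows throughout life, and dividing mesenchymal cells near its base supply the pulp and the dentin-forming odontoblasts.

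All animals were wild-type C57BL/6J mice aged postnatal day 60, with sex given as not determined. In 5 mice the inferior alveolar nerve, which serves the lower incisor, was resected on 1 side, and tissue of both lower incisors was taken 2 weeks later. The operated side is called denervated and the other contralateral, with 5 arrays each. The contralateral incisor belongs to the operated animal, and no array of an unoperated or sham-operated mouse was analysed here. The study asked which genes of the mesenchyme depend on innervation. Both sides carried abundant RNA of the mesenchymal matrix genes Col1a1 (log2 intensity 12.98 ± 0.15 against 13.07 ± 0.05) and Sparc (12.66 ± 0.25 against 12.79 ± 0.04), as mean ± SD, n = 5, denervated first. They also carried enamel genes of the dental epithelium: Ambn read 12.35 ± 1.54 against 13.02 ± 0.05 and Amelx 11.96 ± 2.08 against 12.87 ± 0.06.

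E2F-type motifs lie in many of the members' promoters, so the stretches that carry them are shown first. Promoter windows of RefSeq for mouse build GRCm38.p6, each 250 bases before to 50 bases after the start of a gene, were found for 33 of the 40 members. Both strands were searched for TTTCCCGC, TTTCGCGC, TTTGCCGC and TTTGGCGC, 4 forms of the E2F consensus, which may overlap one another. A gene can have several windows. At least 1 match lay in the windows of 15 of the 33 members (45.5%), against 550 of 14452 genes on the array with a window (3.81%). Counted by window, 744 of all 32851 windows (2.26%) held one. Median GC content was 58.3% both over the 39 windows of members and over the 18109 windows of genes on the array. The examples below are from helicase subunits, 1 clamp loader subunit and 1 GINS subunit. They read 5′ to 3′ on the strand of the gene, and capitals mark motif matches, which appear as their reverse complement where the match is on the other strand.
Mcm3, chr1:20820267-20820293, minus strand: GCGGGAAAacttgggaagtTTTGGCGC
Mcm5, chr8:75109310-75109413, plus strand: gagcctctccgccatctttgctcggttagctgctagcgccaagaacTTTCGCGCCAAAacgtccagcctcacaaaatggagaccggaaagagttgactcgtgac
Mcm6, chr1:128359706-128359861, minus strand: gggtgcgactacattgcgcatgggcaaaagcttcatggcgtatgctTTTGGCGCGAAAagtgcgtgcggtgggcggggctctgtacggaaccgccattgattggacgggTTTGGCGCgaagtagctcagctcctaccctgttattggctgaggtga
Rfc3, chr5:151651209-151651264, minus strand: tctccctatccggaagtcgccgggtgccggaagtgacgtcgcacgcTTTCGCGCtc
Gins3, chr8:95633472-95633558, plus strand: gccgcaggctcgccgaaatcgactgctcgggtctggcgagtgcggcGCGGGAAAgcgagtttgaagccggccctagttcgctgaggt
With the first transcribed base counted as 0, the Mcm3 stretch covers positions 19 to 45, inside the start of the transcript, and its matches stand at 19 to 26 and 38 to 45. In Mcm5 a pair of matches on opposite strands overlaps between -153 and -142, and in Mcm6 the same kind of overlap lies between -110 and -99, with a further match at -47 to -40. The match shown for Rfc3 lies at -10 to -3, next to the start, and the one for Gins3 at -41 to -34. TTTGCCGC was found for 0 of 33 members.

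The other members with a match were Mcm7, Cdc6, Cdt1, Orc1, Pola1, Pold1, Pold3, Pole2, Lig1 and Uhrf1. Within the 100 bases before the start the share was smaller: 4 of 33 members (12.1%) against 1.38% of genes on the array. The CCAAT box, bound by NF-Y, was found for 20 of 33 members (60.6%) against 42.0% of genes on the array. TTTGAA, the cell cycle homology region of genes expressed late in the cycle, was in 5 of 33 (15.2%) against 15.7%. A match is a string of letters and was not tested as a binding site. Members with and without an E2F-type match differed little between the sides: the median log2 difference was 0.14 for the 15 with a match and 0.15 for the 18 without.

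Values are on the log2 scale of signal intensity, where the middle probe set of an array read 1.48 to 1.54 and the top one 12.9 to 13.2. A log2 difference of 1 would be a doubling of signal. Of the 40 members 23 had a mean of at least 4, 12 lay between 2 and 4, and 5 were below 2, where signal cannot be told from background (Chaf1b, Cdc45, Mcm10, Orc1 and Tyms). Probe sets differ in how strongly they bind, so levels of different genes are not ranked. With 5 arrays a side precision is limited, and a member's difference had a standard error of 0.15 at the median, against 0.10 for all genes. Contralateral array 3 stood apart for this gene set, as given below. It also had the lowest 75th percentile of signal, 4.35, where the others ran from 4.37 (contralateral array 5) to 4.56 (denervated array 2). After subtracting each gene's own mean, genes with a mean from 4 to 7 had a median of -0.08 there. In the other arrays that median ran from -0.06 to 0.11, highest in denervated array 2. The part of overall signal in the replication values was not tested. The labels do not say how the tissue of different mice was handled, so p-values measure the spread between these samples.

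Replication genes leaned towards the denervated side by a small amount, without a single gene passing the test. The log2 difference, denervated minus contralateral, was above 0 in 35 of 40 members, where 55.8% of all genes and 63.9% of genes with a mean of at least 4 were above 0. The median difference was 0.17 for members and 0.02 for all genes. With a mean of at least 4 it was 0.17 for 23 members and 0.04 for all genes. After Benjamini-Hochberg adjustment of limma's p over 18193 genes, 0 members and 0 genes (0%) passed 0.05, and the smallest adjusted p of a member was 0.790. At an unadjusted p under 0.05, 7 members were higher on the denervated side (Prim2, Mcm3, Rpa2, Pola2, Gins2, Mcm4 and Rfc4), where 4.10% of all genes were, and 0 members were lower, where 2.11% of all genes were. The count moved when single arrays were left out. It was 1 without contralateral array 3 or contralateral array 5, and 2 without denervated array 1 or contralateral array 2. It was 3 without denervated array 2, and 4 without denervated array 3 or contralateral array 4. Over all settings that leave out 1 array or both arrays of a mouse, it ran from 1 to 8. The count over all 18193 genes moved too, from 746 with all arrays to 513 without contralateral array 3. For the other arrays left out, the count over all genes is not given here, so those member counts cannot be set against it.

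Arrays of equal number were taken as incisors of the same mouse, which the labels do not state. The values bear this out least for number 3. In deviations from group means, denervated array 3 correlated at 0.18 with contralateral array 3 and at 0.22 with contralateral array 1. In what follows a numbered mouse means the arrays of that number. With the mouse as a block in the limma fit, 11 members were higher at an unadjusted p under 0.05, against 6.99% of all genes, and 0 were lower, against 2.93%. The smallest adjusted p of a member was then 0.399. Those that came in were Prim1, Chaf1b, Orc6 and Mcm6. Higher in 5 of 5 mice were 4 members (Prim2, Mcm3, Rfc4 and Prim1), where 6.58% of all genes were, and 0 members were lower in 5 of 5, where 3.80% were. A further 16 members were higher in 4 of 5 mice, 12 in 3 and 8 in 1 or 2. Higher in 4 or 5 mice were thus 20 of 40 members, against 4675 of all 18193 genes. With a mean of at least 4 they were 13 of 23 members and 2493 of 7919 genes. For 0 members did the 5 denervated values all lie above the 5 contralateral ones, a pattern shown by 0.528% of all genes.

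Averaging each member after subtracting its own mean gave a module value per array. It was 0.21, 0.28, 0.05, -0.05 and -0.07 in denervated arrays 1 to 5 and 0.15, 0.01, -0.40, 0.03 and -0.21 in contralateral arrays 1 to 5. The groups overlapped widely, and contralateral array 3 lay below all others. Group means were 0.08 ± 0.15 and -0.08 ± 0.22 (SD, n = 5), a difference of 0.17, about the size of the spread within a group. Within mice the differences were 0.05, 0.27, 0.45, -0.08 and 0.14, so 4 of 5 mice were higher on the denervated side and mouse 4 was lower. Counting genes, 27, 30, 37, 15 and 25 of the 40 members were higher on the denervated side in mice 1 to 5. The shares of all genes higher there were 46.1%, 57.6%, 60.0%, 52.4% and 48.1%. Without contralateral array 3 the difference of the module value was 0.09.

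**Figure D1:**
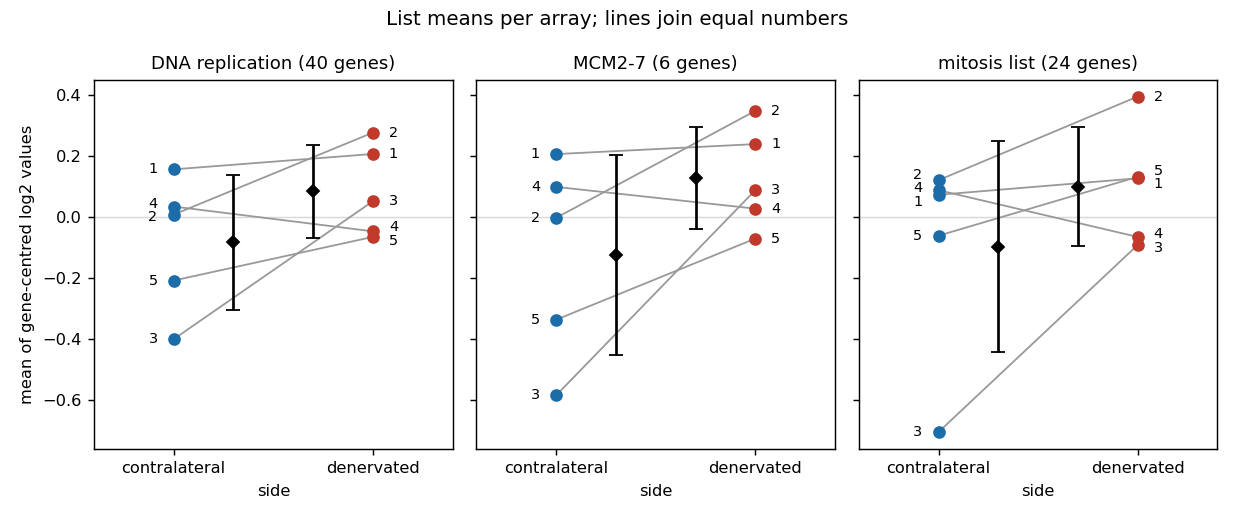
Mean of gene-centred log2 values per array for the 40 replication members, the 6 MCM2-7 genes and the 24 measured genes of a mitosis list, contralateral in blue and denervated in red, with the arrays' numbers beside the points. Lines join equal numbers, and diamonds with bars are group means ± SD (n = 5). Contralateral array 3 is lowest in all 3 panels, at -0.40, -0.59 and -0.71, and number 4 alone slopes down from contralateral to denervated in every panel.

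Contralateral array 3 was the lowest of all 10 arrays in 24 of the 40 members and the lowest of its group in 28. It was below the member's own mean in 38. Of all genes 11.1% had their lowest value there, and of genes with a mean of at least 4 the share was 14.3%. Contralateral array 5 was also low, below the member's mean in 36 of 40, and denervated array 2 was highest of all in 20. Without contralateral array 3 the median difference of the members was 0.07, 31 members were above 0, among them Orc1, which had been below, and 1 (Prim2) had an unadjusted p under 0.05. Over all 18193 genes the median was then 0.02, 10070 were above 0 and 513 were higher at an unadjusted p under 0.05. Of the 35 members above 0 with all arrays, 32 had a smaller difference without contralateral array 3, 21 moved over 1.5 times, and 5 went below 0 (Cdc6, Cdt1, Rrm1, Rpa1 and Cdc45).

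**Figure D2:**
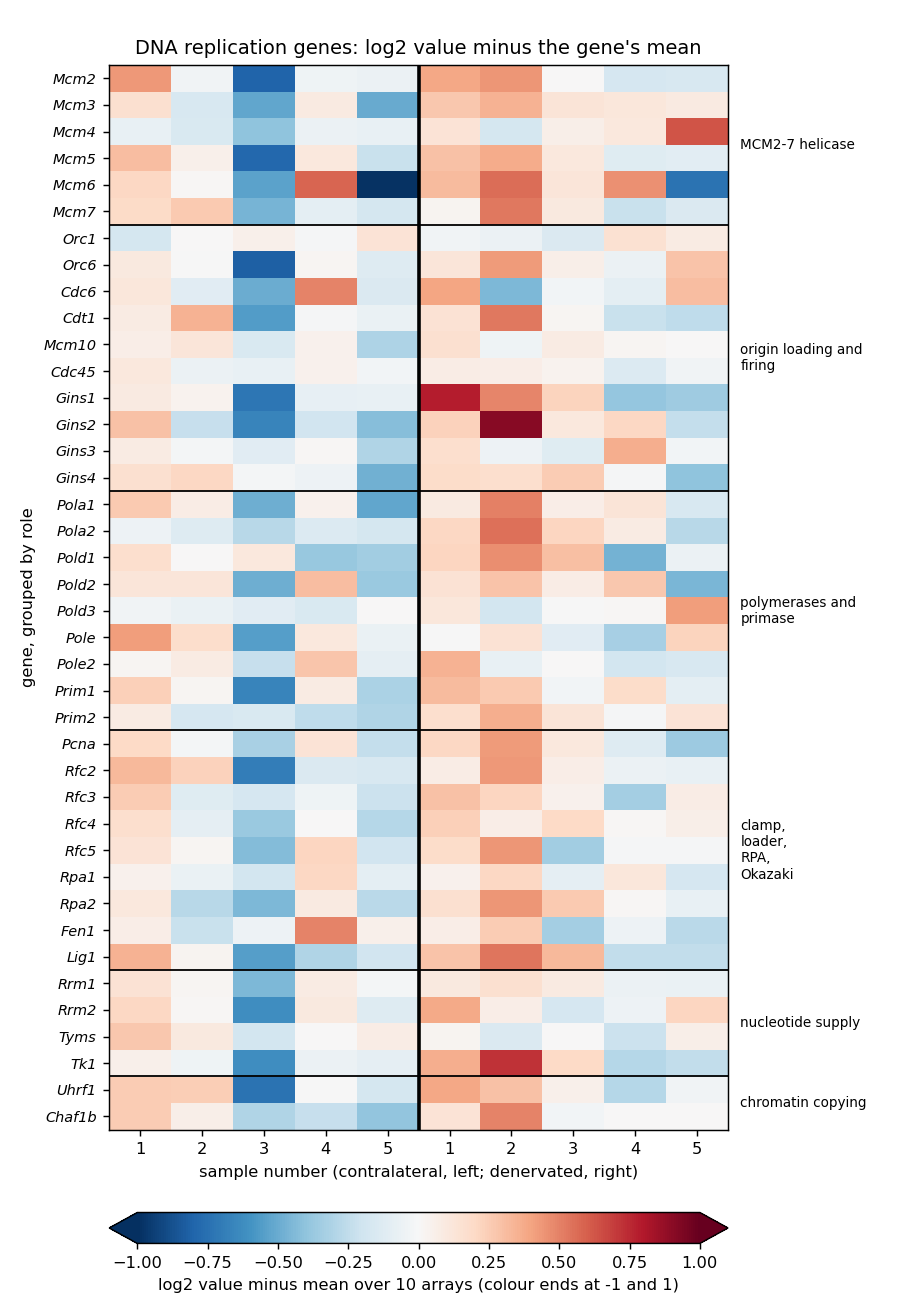
Gene-centred log2 values of the 40 members (rows, grouped by role) in each array (columns, contralateral left and denervated right, numbered 1 to 5), red above and blue below the gene's mean. Contralateral array 3 is below the mean in 38 of 40 rows and contralateral array 5 in 36, while denervated array 1 is above it in 38 and denervated array 2 in 32.

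The MCM2-7 genes encode the subunits of the replicative helicase, a ring that opens the double strand. All 6 differences were above 0, with a median of 0.25, and 2 of 6 had an unadjusted p under 0.05, where 4.10% of all genes were higher. Without contralateral array 3 the median was 0.12 and 0 of 6 were under 0.05. Under the mouse block 3 were, where 6.99% of all genes were higher. The 6-gene average was 0.24, 0.35, 0.09, 0.03 and -0.07 in denervated arrays 1 to 5 and 0.20, 0.00, -0.59, 0.10 and -0.34 in contralateral arrays 1 to 5. The difference of 0.25 was 0.13 without contralateral array 3.

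Mcm3 read 5.65, 5.73, 5.52, 5.50 and 5.47 in denervated arrays 1 to 5 and 5.54, 5.22, 4.86, 5.47 and 4.88 in contralateral arrays 1 to 5. All denervated values stood between 5.47 and 5.73. Contralateral array 1 lay within that range and contralateral array 4 just below it, with lower values in contralateral arrays 2, 3 and 5. The log2 difference was 0.38 ± 0.14 (SE), or 1.30-fold, with an unadjusted p of 0.0194 and an adjusted p of 0.790; without contralateral array 3 it was 0.29. It was above 0 in 4 of the 5 probe sets that name Mcm3.

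Mcm4 read 6.86, 6.55, 6.78, 6.83 and 7.35 in denervated arrays 1 to 5 and 6.65, 6.57, 6.32, 6.67 and 6.64 in contralateral arrays 1 to 5. Denervated array 5 was the highest and contralateral array 3 the lowest, and denervated array 2 lay within the contralateral values. The difference was 0.31 ± 0.13, with an unadjusted p of 0.0442 and an adjusted p of 0.790. The further probe set of Mcm4 differed by 0.18.

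Mcm2 read 5.40, 5.46, 5.02, 4.85 and 4.86 in denervated arrays 1 to 5 and 5.45, 4.99, 4.22, 4.98 and 4.96 in contralateral arrays 1 to 5. Contralateral array 3 was far below the rest, and only 2 of 5 mice were higher on the denervated side. The difference of 0.20 ± 0.21 was 0.02 without that array.

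By the probe set used, Mcm6 varied with the animal more than with the side. Its values were 6.56, 6.80, 6.37, 6.70 and 5.50 in denervated arrays 1 to 5 and 6.45, 6.25, 5.71, 6.83 and 5.25 in contralateral arrays 1 to 5. Mouse 5 was low on both sides, mouse 4 high on both, and the difference of 0.29 ± 0.31 had an unadjusted p of 0.377 without the mouse as a block and 0.0447 with it. A further Mcm6 probe set, with a mean of 6.1 where the one used had 6.2, read 6.03 in denervated array 5 and 4.95 in contralateral array 5. The low value of mouse 5 on both sides thus depends on the probe set. This further probe set differed by 0.34 between the sides, and the remaining one, with a mean of 0.83, by -0.07. Mcm5 read 6.66 ± 0.23 against 6.45 ± 0.42 (mean ± SD, n = 5, denervated first), a difference of 0.22 ± 0.19. Mcm7 read 7.66 ± 0.29 against 7.55 ± 0.30, a difference of 0.11 ± 0.17. The differences were 0.05 for Mcm5, 0.01 for Mcm7 and 0.19 for Mcm6 without contralateral array 3.

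**Figure D3:**
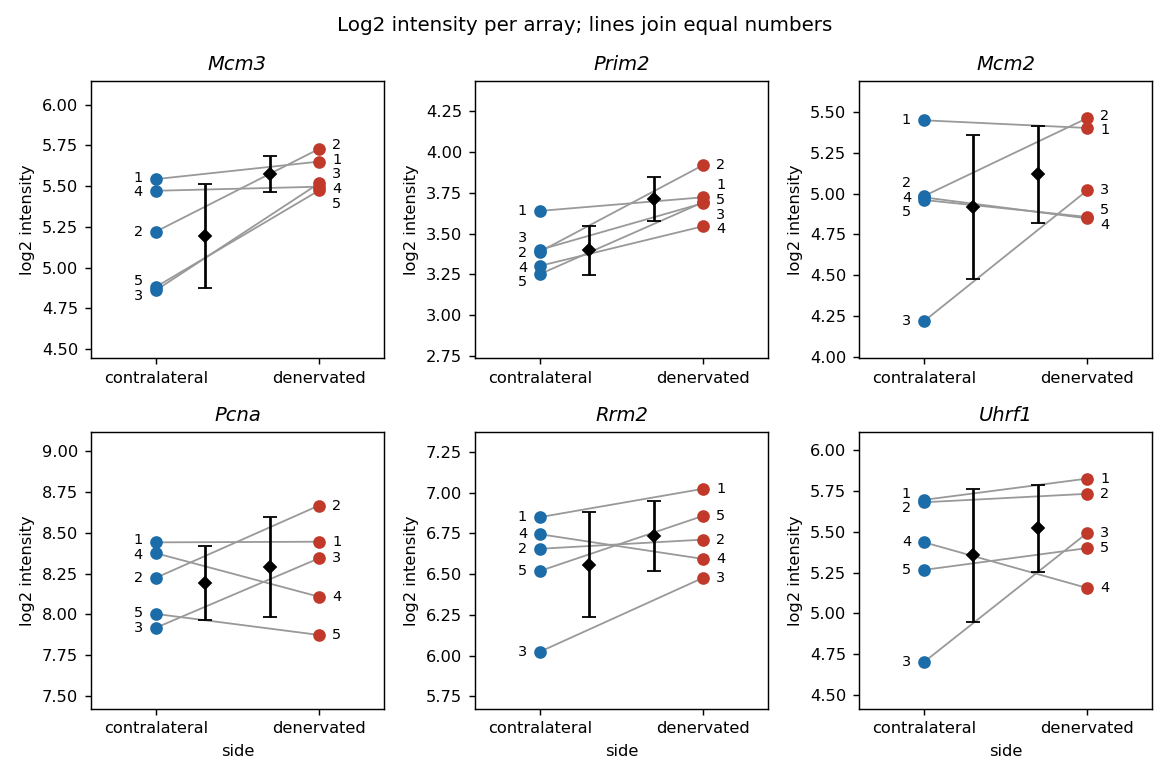
Log2 intensity of Mcm3, Prim2, Mcm2, Pcna, Rrm2 and Uhrf1 in each array, contralateral in blue and denervated in red, with lines joining equal numbers and diamonds with bars for the group mean ± SD (n = 5); the panels have different vertical ranges. In Mcm3 and Prim2 every line slopes up towards the denervated side, while in the other panels lines slope both ways and the groups overlap.

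Among the genes for origin licensing and firing, 9 of 10 differences were above 0, with a median of 0.09. At an unadjusted p under 0.05, 1 of 10 was higher (4.10% of all genes), or 2 under the mouse block (6.99% of all genes). Without contralateral array 3 the count was 0, where 513 of all 18193 genes were higher. Gins2, a subunit of the GINS complex, read 2.56, 3.24, 2.43, 2.54 and 2.09 in denervated arrays 1 to 5 and 2.62, 2.09, 1.67, 2.14 and 1.90 in contralateral arrays 1 to 5. Denervated array 2 stood highest and contralateral arrays 3 and 5 lowest, and contralateral array 1 lay among the denervated values. Its difference of 0.48 ± 0.21, or 1.40-fold, was the largest of the 40 members, with an unadjusted p of 0.0442, an adjusted p of 0.790 and a value of 0.38 without contralateral array 3. The mean level was between 2 and 4.

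Orc6, a subunit of the origin recognition complex, read 4.01, 4.32, 3.95, 3.83 and 4.17 in denervated arrays 1 to 5 and 3.98, 3.88, 3.07, 3.91 and 3.75 in contralateral arrays 1 to 5. Apart from contralateral array 3 at 3.07, the contralateral values lay between 3.75 and 3.98, and denervated values ran from within that range to above it. The difference was 0.33 ± 0.17, with an unadjusted p of 0.0698 (0.0409 under the mouse block), and 0.17 without contralateral array 3.

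The loaders of the helicase had differences closer to 0. Cdc6, the ATPase that loads MCM2-7, read 3.19, 2.34, 2.77, 2.70 and 3.10 in denervated arrays 1 to 5 and 2.91, 2.68, 2.30, 3.29 and 2.65 in contralateral arrays 1 to 5. Both sides spread over about the same range, and the difference of 0.06 ± 0.20 (95% confidence interval -0.38 to 0.49) was -0.06 without contralateral array 3.

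Cdt1, which delivers MCM2-7 to the origin, read 6.21, 6.59, 6.08, 5.84 and 5.81 in denervated arrays 1 to 5 and 6.15, 6.41, 5.51, 6.05 and 6.00 in contralateral arrays 1 to 5. Its difference was 0.08 ± 0.18 (95% confidence interval -0.32 to 0.48), and -0.05 without contralateral array 3. The intervals of Cdc6 and Cdt1 hold differences in either direction.

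The other GINS subunits read 3.49 ± 0.52 against 3.19 ± 0.33 for Gins1, 2.20 ± 0.20 against 2.07 ± 0.15 for Gins3 and 5.47 ± 0.26 against 5.39 ± 0.27 for Gins4, differences of 0.30 ± 0.24 (0.16 without contralateral array 3), 0.14 ± 0.11 and 0.08 ± 0.15. Cdc45, which joins GINS on the helicase, differed by 0.00 ± 0.07. Mcm10, an initiation factor, differed by 0.09 ± 0.09 and Orc1, the ATPase of the origin recognition complex, by -0.00 ± 0.08. These last 3 had means below 2, where signal cannot be told from background.

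DNA polymerase alpha and its primase begin each new strand, and this group held the member with the smallest p. Of the 9 polymerase and primase genes 7 were above 0, with a median of 0.18. At an unadjusted p under 0.05, 2 were higher (4.10% of all genes), or 3 under the mouse block (6.99% of all genes). Without contralateral array 3 the count was 1, where 513 of all 18193 genes were higher. Prim2, the large primase subunit, read 3.72, 3.92, 3.69, 3.54 and 3.69 in denervated arrays 1 to 5 and 3.64, 3.39, 3.40, 3.30 and 3.25 in contralateral arrays 1 to 5. Contralateral array 1 alone reached the denervated range, and every mouse was higher on the denervated side. The difference was 0.32 ± 0.09, or 1.25-fold, with an unadjusted p of 0.00544, an adjusted p of 0.790, and the same size, 0.32, without contralateral array 3. All 3 probe sets of Prim2 were above 0, and its level was between 2 and 4.

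Prim1, the catalytic primase subunit, read 5.47, 5.42, 5.13, 5.33 and 5.06 in denervated arrays 1 to 5 and 5.39, 5.17, 4.49, 5.24 and 4.83 in contralateral arrays 1 to 5. It was higher in 5 of 5 mice, by little in most, and contralateral array 3 was lowest. The difference was 0.26 ± 0.16, with an unadjusted p of 0.139 (0.0275 under the mouse block), and 0.12 without contralateral array 3.

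Pola2, the accessory subunit of polymerase alpha, read 2.99, 3.33, 2.99, 2.86 and 2.50 in denervated arrays 1 to 5 and 2.73, 2.66, 2.51, 2.64 and 2.61 in contralateral arrays 1 to 5. The contralateral values lay close together, while the denervated ones ran from the lowest of all in array 5 to the highest in array 2. The difference was 0.31 ± 0.13, with an unadjusted p of 0.0356 and an adjusted p of 0.790.

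Pola1, the catalytic subunit of polymerase alpha, read 4.94, 5.35, 4.91, 4.98 and 4.69 in denervated arrays 1 to 5 and 5.11, 4.92, 4.36, 4.89 and 4.33 in contralateral arrays 1 to 5. The sides overlapped, with contralateral arrays 3 and 5 low. The difference was 0.25 ± 0.17, with an unadjusted p of 0.167, and 0.16 without contralateral array 3.

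With all arrays the elongating polymerases differed less. In polymerase delta, Pold1 differed by 0.18 ± 0.18, Pold2 by 0.13 ± 0.18 and Pold3 by 0.14 ± 0.10. In polymerase epsilon, which copies the leading strand, Pole differed by -0.04 ± 0.17 and Pole2 by -0.03 ± 0.12, both slightly below 0. Each of these 5 had an unadjusted p above 0.05. Without contralateral array 3 Pold1 was 0.23, Pold2 0.02, Pold3 0.13, Pole -0.18 and Pole2 -0.09. Pold1 then lay above Pola1 (0.16) and Prim1 (0.12), and Pold3 above Prim1, so the smaller difference does not hold for each gene. It was not tested.

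The clamp, its loader and the proteins of lagging strand synthesis gave 8 of 9 differences above 0, a median of 0.12 and 2 higher with an unadjusted p under 0.05 (4.10% of all genes). Without contralateral array 3 the median was 0.03 and 0 were under 0.05. Rpa2, a subunit of the single-strand binding complex, read 5.06, 5.33, 5.16, 4.91 and 4.82 in denervated arrays 1 to 5 and 5.00, 4.62, 4.45, 4.98 and 4.62 in contralateral arrays 1 to 5. Denervated arrays 1, 2 and 3 were above all contralateral values, and mouse 4 was lower on the denervated side. The difference was 0.32 ± 0.13, with an unadjusted p of 0.0329, an adjusted p of 0.790 and 0.25 without contralateral array 3. Its partner Rpa1 differed by 0.04 ± 0.10.

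Rfc4, a subunit of the clamp loader, read 5.43, 5.26, 5.39, 5.20 and 5.25 in denervated arrays 1 to 5 and 5.36, 5.10, 4.82, 5.20 and 4.90 in contralateral arrays 1 to 5. The denervated values lay within 0.3 of one another, every mouse was higher on that side, and the contralateral range reached into theirs. The difference was 0.23 ± 0.10, with an unadjusted p of 0.0487 and an adjusted p of 0.790. The other clamp loader subunits differed by 0.17 ± 0.18 (Rfc2), 0.12 ± 0.13 (Rfc3) and 0.10 ± 0.16 (Rfc5); without contralateral array 3 Rfc2 was 0.02 and Rfc5 0.01.

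Pcna, the sliding clamp, read 8.45, 8.67, 8.34, 8.11 and 7.87 in denervated arrays 1 to 5 and 8.44, 8.22, 7.92, 8.38 and 8.003 in contralateral arrays 1 to 5. Its highest and its lowest value were both denervated, in arrays 2 and 5. The difference was 0.10 ± 0.15, with a 95% confidence interval of -0.24 to 0.43, and 0.03 without contralateral array 3.

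Lig1, the ligase that seals lagging strand fragments, read 5.07 ± 0.36 against 4.80 ± 0.34, a difference of 0.27 ± 0.19 (0.16 without contralateral array 3). Fen1, the flap nuclease that trims them, was the member furthest below 0, at -0.14 ± 0.15, with 5.14 ± 0.24 against 5.28 ± 0.27. The other probe set of Fen1 differed by 0.21, so its direction depends on the probe set.

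Of the 4 genes of nucleotide supply, 3 were above 0, with a median of 0.13 (0.01 without contralateral array 3), and 0 had an unadjusted p under 0.05. Rrm2, the S phase subunit of ribonucleotide reductase, read 7.02, 6.71, 6.48, 6.59 and 6.86 in denervated arrays 1 to 5 and 6.85, 6.65, 6.02, 6.74 and 6.52 in contralateral arrays 1 to 5. Contralateral array 3 was lowest, and the other arrays of the sides overlapped. The difference of 0.17 ± 0.16 was 0.04 without that array. Rrm1, the large subunit, differed by 0.09 ± 0.11.

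Tk1, thymidine kinase, read 3.65, 4.01, 3.48, 3.00 and 3.04 in denervated arrays 1 to 5 and 3.34, 3.25, 2.66, 3.23 and 3.19 in contralateral arrays 1 to 5. Denervated arrays 1, 2 and 3 were above all contralateral values, denervated arrays 4 and 5 were below 4 of the 5, and contralateral array 3 was lowest. Its difference was 0.30 ± 0.20, with an unadjusted p of 0.153, and 0.19 without contralateral array 3.

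Tyms, thymidylate synthase, read 1.38, 1.21, 1.35, 1.13 and 1.41 in denervated arrays 1 to 5 and 1.62, 1.45, 1.16, 1.36 and 1.42 in contralateral arrays 1 to 5. All values were below 2, and the sides overlapped. The difference was -0.11 ± 0.09, with an unadjusted p of 0.281, and -0.16 without contralateral array 3.

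The measured chromatin factors were Uhrf1 and Chaf1b. Uhrf1, which brings the maintenance DNA methyltransferase to newly copied DNA, read 5.83, 5.73, 5.49, 5.16 and 5.40 in denervated arrays 1 to 5 and 5.70, 5.68, 4.70, 5.44 and 5.27 in contralateral arrays 1 to 5. Contralateral array 3 lay below all others, and the difference of 0.17 ± 0.19 was 0.00 without it.

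Chaf1b, a subunit of the histone chaperone CAF-1, read 1.36, 1.71, 1.19, 1.22 and 1.22 in denervated arrays 1 to 5 and 1.48, 1.28, 0.92, 0.99 and 0.83 in contralateral arrays 1 to 5. These values are below 2. The difference was 0.24 ± 0.14, with an unadjusted p of 0.113 (0.0318 under the mouse block).

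**Figure D4:**
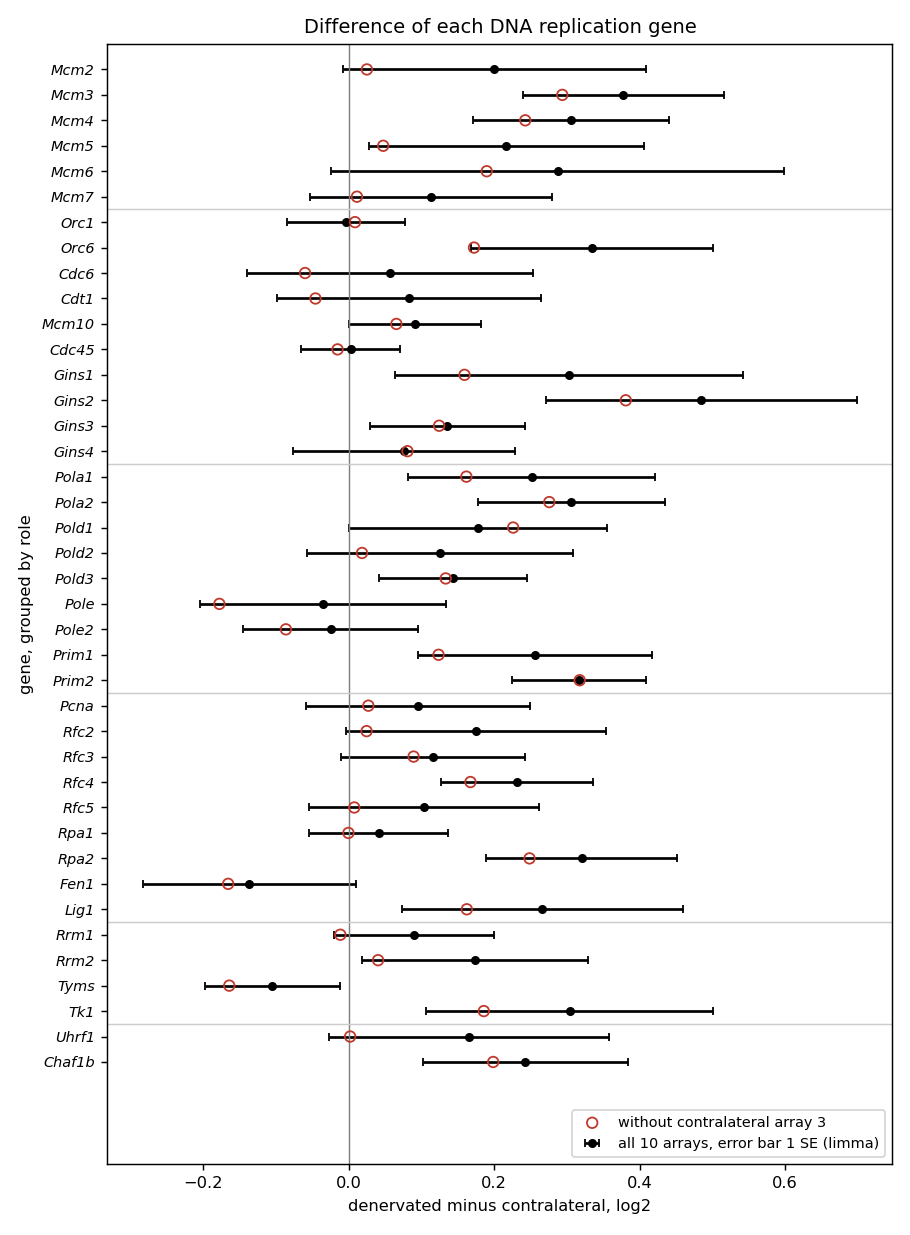
Log2 difference, denervated minus contralateral, of the 40 members, grouped by role, with bars for 1 standard error of the limma fit; open red circles give the value without contralateral array 3. The points run from -0.14 (Fen1) to 0.48 (Gins2), and for 32 of the 35 members above 0 the open circle lies to the left of the black point.

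The members moved together across arrays. Over the 10 arrays, which come from 5 mice, the median Pearson correlation between pairs of members was 0.54 (780 pairs). It was 0.62 for the 23 members with a mean of at least 4 and, for all members, 0.43 without contralateral array 3. These values describe arrays that share mice, overall signal and contralateral array 3, and are given with no test. The correlation of a member with the mean of the others ran from -0.62 (Orc1) to 0.97 (Mcm5), was above 0.8 in 19 and above 0.5 in 32, and was below 0 in 2 (Orc1 and Pold3).

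Cell type markers differed between arrays as well. The summed linear intensity of 12 macrophage markers was 1407 to 2500 in denervated and 1182 to 1362 in contralateral arrays, Csf1r and Lyz2 among them, and was highest in denervated arrays 2 and 3. For 9 smooth muscle and pericyte markers the ranges were 1961 to 3316 and 1745 to 1932, for 10 endothelial markers 246 to 410 and 268 to 315, and for 8 Schwann cell markers 235 to 1078 and 218 to 318. The 11 dental epithelial markers summed to 3271 (array 3) to 22214 in denervated and 19867 to 22467 in contralateral arrays, and the 9 odontoblast markers to 24777 to 37078 and 33372 to 35406. Of 7 lymphocyte markers 6, and of 4 erythroid markers 4, had a mean below 2. In contralateral array 3 the macrophage sum of 1302 and the endothelial sum of 276 lay within the range of the other contralateral arrays. The odontoblast sum of 35406 was the highest of its group and the Schwann sum of 218 the lowest. For smooth muscle and pericyte markers the sum of 1854 lay within the range of its group. The mean of their gene-centred values there, -0.35, was the lowest of all 10 arrays. The part of these markers in the replication values was not tested. Without denervated arrays 2 and 3, an alternative chosen after seeing the data, 3 members had an unadjusted p under 0.05. The share of all genes in that setting is not given here. In whole tissue, fewer cycling cells and less RNA per cell cannot be told apart.

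Other replication factors, a list of 44 further genes such as origin subunits, kinases and replisome adaptors, gave 33 of 42 measured differences above 0 with a median of 0.08. At an unadjusted p under 0.05, 2 of 42 were higher, where 4.10% of all genes were, and 0 lower. Without contralateral array 3 the median was 0.03, and 1 was higher, where 513 of all 18193 genes were. Dbf4, the activator of the Cdc7 kinase that fires origins, read 4.99 ± 0.16 against 4.73 ± 0.12, a difference of 0.26 ± 0.09, and Orc2, an origin recognition subunit, 4.55 ± 0.15 against 4.33 ± 0.11, a difference of 0.22 ± 0.09. The direction of Orc2 depends on the probe set, being -0.02 with the one of largest variance, and its unadjusted p was 0.0513 without contralateral array 3. Dtymk, which makes dTDP, differed by 0.23 ± 0.11 and Topbp1, a scaffold of origin firing, by 0.16 ± 0.09.

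Regulators of entry into S phase gave 20 of 24 above 0 with a median of 0.09. At an unadjusted p under 0.05, 2 of 24 were higher (4.10% of all genes) and 0 lower. Without contralateral array 3, 1 was higher, where 513 of all 18193 genes were, and under the mouse block 3 were (6.99% of all genes). Cdk2, the kinase of the G1 to S step, differed by 0.28 ± 0.10 and Skp2, which marks cell cycle inhibitors for degradation, by 0.28 ± 0.12. Rb1, the restrainer of E2F factors, differed by -0.27 ± 0.13 and Cdk4 by 0.17 ± 0.11. E2f1 itself differed by 0.00 ± 0.08 (95% confidence interval -0.17 to 0.17) at a mean near 2. Of the E-type cyclins, which activate Cdk2, Ccne1 differed by 0.08 ± 0.08 and Ccne2 by 0.29 ± 0.23, the latter higher in 5 of 5 mice.

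Mitotic genes showed the same low array. Of 24 measured genes 23 were above 0, with a median of 0.18 and, without contralateral array 3, 0.05, with 16 above 0. Their mean value in contralateral array 3 was -0.71, lower by 0.76 than in the other contralateral arrays. Ttk, a spindle checkpoint kinase, differed by 0.36 ± 0.16 and was the 1 gene of 24 with an unadjusted p under 0.05 (0.0478), where 4.10% of all genes were higher. Without contralateral array 3 its p was 0.121 and 0 genes of the list were under 0.05; under the mouse block 4 were, where 6.99% of all genes were higher. Those were Ttk, Bub1 and, named after their values were seen, Kif11 and Aurkb. Bub1, of the same checkpoint, differed by 0.51 ± 0.25 (0.27 without contralateral array 3), the kinase Plk1 by 0.39 ± 0.22 (0.24) and Cdk1, which drives entry into mitosis, by 0.31 ± 0.18 (0.15). The widely used proliferation marker Mki67 differed by 0.09 ± 0.17, and by -0.06 without contralateral array 3, and topoisomerase Top2a by 0.14 ± 0.18 and -0.04. By limma's adjusted p, 0 genes of these 3 lists passed 0.05.

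The genes that followed the replication module most closely were then listed among 7896 other genes with a mean of at least 4. The highest Pearson correlations over the 10 arrays were those of Gmnn, which encodes the Cdt1 inhibitor geminin (0.945), Set (0.945), Rps27l (0.943), Exosc8 (0.941), Eif3f (0.938), Gart (0.933), Pclaf, a Pcna partner (0.930), Ncl (0.927), Rnaseh2b (0.925) and Dkc1 (0.924). The median over all 7896 genes was 0.28. The lowest were Pogk (-0.85), Cbl (-0.84) and Stx1a (-0.84). By list the median was 0.77 for the 13 mitosis genes compared, 0.56 for 26 other replication genes and 0.43 for 18 regulators of S phase entry. Marker lists reached like values: 0.59 for 3 Schwann cell genes, 0.51 for 8 endothelial and 0.50 for 6 smooth muscle and pericyte genes, with 0.37 for 9 macrophage, -0.12 for 11 dental epithelial and -0.43 for 9 odontoblast genes. The same arrays set all of these values, so they are a description.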

How the data were processed

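Total RNA labelled with biotin was hybridised to 10 expression arrays, 5 per side. Each deposited value is the log2 intensity of a probe set on an array, made by the authors with RMA (background correction, normalization between arrays, probe summary), per the submitters' processing notes; the version and variant are not given in the sources used here. Values were used as deposited. There are no detection calls, so low values cannot be told from background.

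Of 45101 probe sets 64 controls were left out. In the supplied platform annotation 34945 name 1 gene symbol, 932 several and 9160 none; 34741 matched a RefSeq gene by Entrez identifier and 0 symbols changed. The probe set with the highest mean stood for each of 18193 genes. Sides were compared with limma 3.58.1 in R 4.3.3 (lmFit, eBayes, two-sided), adjusted by Benjamini-Hochberg over all genes, without a mouse term; each difference carries limma's standard error. The fit was tested on simulated data. The design text names 5 mice but not which number is which. Deviations from group means correlated at 0.18 to 0.57 in the 5 same-numbered pairs and -0.41 to 0.22 in the 20 others, so equal numbers were taken as 1 mouse and the blocked fit was run beside the main one.

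Members and lists were chosen with earlier results of these data known. Values in every array are given for the 10 members with the smallest p and for Mcm2, Mcm3, Cdc6, Cdt1, Pcna, Pola1, Rrm2, Tyms, Tk1 and Uhrf1; Mcm6 was added after its values were seen. From other lists, up to 4 genes of smallest p were named, with E2f1, Ccne1, Ccne2, Mki67 and Top2a, and from marker lists up to 2 genes of highest mean signal. Alternatives were the block, leaving out arrays or mice, other probe set choices, a limit on low values and quantile normalization; leaving out a mouse under the block, and denervated arrays 2 and 3 together, were added after seeing the data.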

Additional observations from a re-analysis of the deposited data

Results flagged for a closer look

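In 6 of 82 groups of 5 values tested, 1 array lay far from the other 4. The gap there passed Dixon's 95% limit of 0.710 of the group's range. Chance alone flags about 1 in 20 independent groups. These groups share the same arrays, and the members move together, so the flags are not separate observations. Of the 6 flags, 5 were at contralateral array 3, the array already low for this gene set. There Mcm4 read 6.32, where the other contralateral arrays ran from 6.57 to 6.67. Gins1 read 2.61 against 3.25 to 3.43. Rrm1 read 5.37 against 5.80 to 5.96. Tk1 read 2.66 against 3.19 to 3.34, and Orc6 read 3.07 against 3.75 to 3.98. The remaining one was Pold2 in denervated array 5, which read 5.14 where the other denervated arrays ran from 5.67 to 5.88.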

How the results depend on the processing

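The lean of the members towards the denervated side kept its direction under 29 alternatives: the median difference ran from 0.07 to 0.24, and 0 members passed the adjusted threshold in any of them. The difference of the module value ran from 0.09 to 0.23 over 21 of them; it was not computed for the other 8, which differ in the model fitted. The count of members higher at an unadjusted p under 0.05, 7 in all arrays, did not hold: it was 11 with the replicate block, 4 with quantile normalization, 3 without denervated arrays 2 and 3, 2 with probe sets averaged per gene, and 3 where genes needed a mean of at least 4, which left 23 members, 22 of them above 0. Leaving out 1 array or both arrays of a mouse gave 1 to 8. With the replicate block and 1 mouse left out it was 10, 4, 2, 14 and 4 without mouse 1 to 5. In that fit without mouse 4, 1 gene of all, Fcna, passed (1.56 ± 0.10, limma adjusted p 0.0270, named after its value was seen). The block changed no other call. The share of all genes higher at an unadjusted p under 0.05 moved as well, from 4.10% in the main fit to 6.99% with the replicate block. For the other settings above that share is not given here, so their counts cannot be set against it.

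Some differences changed sign, most of them near 0, and Orc2, at 0.22, with another probe set. Over the settings that leave out arrays, Cdc6 ran from -0.0602 to 0.219, Cdt1 from -0.0459 to 0.180, E2f1 from -0.0366 to 0.0544, Mki67 from -0.0615 to 0.212 and Top2a from -0.0395 to 0.216. With the replicate block, Cdc6 was -0.000521, -0.0471 and -0.0441 without mouse 1, 3 and 5, E2f1 was -0.0301 and -0.0366 without mouse 1 and 4, and Cdt1 was -0.0398 and Mki67 -0.0260 without mouse 3. Without denervated arrays 2 and 3, Pcna was -0.0498 and Cdt1 -0.0709. Top2a was -0.0319 with the mean of its probe sets, Orc2 -0.0247 with its probe set of largest variance and E2f1 -0.0303 after quantile normalization. The cause was not tested. Signal limits the 5 members with means below 2.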

Other observations

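Members read by a probe set whose name ends in _x_at, the array maker's mark for probes that may also bind other transcripts, followed the module less closely. For these 6 members the median correlation with the other members was 0.33 (from -0.10 to 0.97), and for the other 34 it was 0.82 (from -0.62 to 0.93). Their mean centred value in denervated array 5 was 0.14, where that of the other members was -0.10. Mcm4 and Pold3 of this kind had their highest value of all arrays there, as 0 of the other 34 did.

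Both Mcm4 and Fen1 have a further probe set. The one used for Mcm4 correlated at 0.17 with the other members and differed by 0.31 between the sides, and the further one correlated at 0.96 and differed by 0.18. It read 6.30, 6.45, 6.13, 6.07 and 5.93 in denervated arrays 1 to 5 and 6.23, 6.10, 5.60, 6.30 and 5.74 in contralateral arrays 1 to 5, lowest in contralateral array 3 and without a high value in denervated array 5. For Fen1 the probe set used correlated at 0.24 and differed by -0.14, and the further one correlated at 0.98 and differed by 0.21. Of 88 probe sets of the members 75 were above 0, and of the 36 with a mean of at least 4, 34 were, with a median of 0.18. In 31 members with several probe sets, 21 had all in the same direction. These values were looked at after the pattern was seen and were not tested.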
